A study of Mus musculus with 18 samples.

Results

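The genes described here encode proteins that detect DNA or RNA in the cytosol, pass that signal on, or limit the nucleic acid that is there. They were chosen by name: Mb21d1 (now Cgas), Tmem173 (now Sting1), Ddx58, Ifih1, Mavs, Tbk1, Irf3, Samhd1, Trex1 and Zbp1. All 10 were found among the 24062 gene symbols of the deposited counts, Mb21d1 and Tmem173 under these older symbols, and all 10 were among the 12859 genes with enough counts to be tested. In the background of this pathway, cGAS binds cytosolic DNA and makes a cyclic dinucleotide that activates STING, while RIG-I and MDA5 bind viral or otherwise unusual RNA and signal through MAVS. Both branches lead to the kinase TBK1, which phosphorylates the transcription factor IRF3 so that type I interferon genes are switched on. Ddx41, the gene deleted here, encodes a DEAD-box helicase that has itself been proposed as a DNA sensor upstream of STING in myeloid cells.

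RNA sequencing was done on 18 libraries of immortalized mouse hematopoietic progenitor lines, 3 libraries in each of 6 groups. All lines came from lineage-negative bone marrow, carried the MLL-AF9 leukemia fusion from a retrovirus, expressed the tamoxifen-dependent Rosa-CreERT recombinase, and grew with IL-3, SCF and IL-6. By genotype the lines were Ddx41 +/+ (WT), +/flox (Het, labelled +/- after 4OHT) or flox/flox (FF, labelled -/- after 4OHT). Each line received 1 µM 4-hydroxytamoxifen (4OHT) or its solvent ethanol (EtOH) for 48 h, a time at which, per the design text, cells without either allele have not yet died. 4OHT and active Cre are therefore shared by all treated groups, and the WT response measures both without a floxed allele. Libraries are lettered A to C. Since the labels name neither the number of lines per genotype nor separate cultures, p-values cover the spread among libraries, which may be technical, and an effect of genotype cannot be told apart from one of the line.

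Library totals ranged from 24730213 to 49277884 counts, and no pair of libraries was identical. Progenitor markers were present: in every library the 7 markers had a summed level of 996 to 1660 CPM, which are counts divided by TMM-scaled library totals. By group mean, 1 of the 7 was under 1 CPM in WT ethanol and in both Het groups, and 2 were in both FF groups. The 11 monocyte and macrophage markers in the table had higher sums, between 2173 and 5066 CPM. The 6 lymphoid markers summed to between 2.50 and 11.8 CPM and the 6 erythroid markers to between 0.845 and 2.65 CPM, with Cd3e, Ms4a1, Hba-a1 and Hbb-bt at 0 in every library. Some libraries stood apart. An axis across all genes was built so that the means of the other WT and the other FF libraries lie at 0 and 1. On it 2 libraries lay against their labels: FF_EtOH C had a position of 0.0289, and that of WT_4OHT C was 0.867. Het libraries lay at 0.852 to 0.977, so a position near 1 does not mark the FF line alone. The Y-chromosome gene Eif2s3y was at 86.3 CPM in FF_EtOH C and at 0 in every other FF library, and was at 0 in WT_4OHT C against 66.4 to 101 CPM in the other WT libraries. Het libraries had 70.9 to 87.8 CPM of Eif2s3y. Tgm2 was at 14.2 to 45.1 CPM in the 8 other libraries labelled 4OHT but at 479.9 CPM in WT_4OHT C, which is within the 219.7 to 708.6 CPM of 8 of the 9 ethanol libraries. The library labelled WT_EtOH C had a Tgm2 level of 25.4 CPM, close to the 17.3 CPM of WT_4OHT B. In these measures WT_4OHT C is like an ethanol library of the FF line, FF_EtOH C like one of the WT line and WT_EtOH C like a treated WT library. The labels of these 3 may therefore be exchanged, which was not tested, and the WT response as labelled may not compare treated with untreated WT cells throughout. Results that rest on FF_EtOH C or WT_4OHT C are given with and without these libraries. Het_4OHT A also differed from its replicates. By a chi-square of counts per gene it was at 268.2 and 202.5 against B and C, which were at 46.15 from each other. In other groups the largest value was 105.6. Het_4OHT A was left out only in the fits without single libraries.

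Ddx41, on chromosome 13 (GRCm38, chr13:55530410-55536658, minus strand), was at 111.8, 82.0 and 73.7 CPM in FF ethanol libraries A, B and C and at 14.6, 16.5 and 17.7 CPM in 4OHT. All FF libraries labelled 4OHT lay far below all others (log2 fold change -2.45 ± 0.17 SE, edgeR adjusted p = 8.09e-07). Het libraries were at 71.3, 68.0 and 79.1 CPM in ethanol and 58.4, 43.0 and 41.3 CPM in 4OHT, which do not overlap (log2 -0.61 ± 0.16, edgeR adjusted p = 0.86 over all genes). WT libraries lay between 75.5 and 93.0 CPM under both treatments. An antisense gene, Gm46416, overlaps Ddx41, and its reads cannot be told apart where the strand setting is not known.

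The sensing genes were all expressed in these lines, at levels that spanned more than an order of magnitude per exonic length. Tmem173, encoding STING, was the most abundant at 38.8 ± 9.02 CPM per kb (mean ± SD over 18 libraries), followed by Tbk1 at 21.99 ± 2.68, Irf3 at 16.0 ± 2.38 and Trex1 at 14.01 ± 3.29 CPM per kb. Mb21d1 (9.95 ± 2.21 CPM per kb), Samhd1 (9.07 ± 1.61) and Mavs (8.52 ± 2.01) came next. The RNA sensors Ifih1 (3.88 ± 0.596 CPM per kb) and Ddx58 (2.75 ± 0.761) were lower, and Zbp1 had the lowest mean at 1.74 ± 1.18 CPM per kb. Zbp1 was also the most variable, with a 9.19-fold range between its highest and lowest libraries, against 1.63-fold to 2.42-fold for the other 9 genes. Taking each mean with its SD, neighbours in this order were separated between Tmem173 and Tbk1, between Tbk1 and Irf3 and between Mavs and Ifih1, and the other neighbours overlapped. This order is pooled over groups and did not hold within each. In Het ethanol and 4OHT libraries Zbp1 (group means 2.91 and 2.82 CPM per kb) was above Ddx58 (2.43 and 2.09), and Mavs (10.03 and 10.06) was above Mb21d1 (7.50 and 7.36). Trex1 was above Irf3 in FF 4OHT, at 17.4 against 13.5 CPM per kb.

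**Figure D1:**
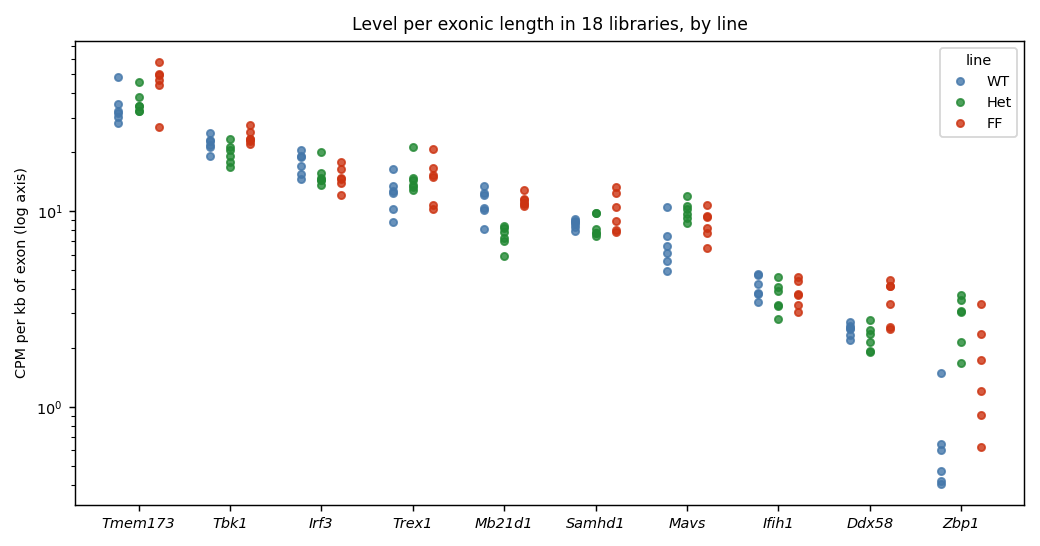
Level of each sensing gene in CPM per kb of exon (log axis) in the 18 libraries, coloured by line, both treatments together. STING (Tmem173) has the highest mean at 38.8 CPM per kb and Zbp1 the lowest at 1.74 when pooled over the lines, with Zbp1 spread widest and above Ddx58 in the Het group means.

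After 4OHT, FF cells had more RNA of 3 of the 10 genes: the RNA sensor Ddx58, the nucleic acid sensor Zbp1 and the nucleotide-degrading enzyme Samhd1. None was called lower. Of all tested genes 13.4% were called in FF, 5.16% higher and 8.29% lower. The median log2 fold change of the 10 genes was 0.41, against -0.02 over all genes. The libraries of the 2 treatments did not overlap for 6 of the 10 genes, 5 higher and Irf3 lower, a share to be read against 40.2% of all genes (18.7% higher and 21.5% lower). Without FF_EtOH C and WT_4OHT C, 2 of the 10 (Samhd1 and Zbp1) were called against 12% of all genes, and the median of the 10 was 0.26. In bulk RNA, a change in the number of cells of a type and a change of RNA per cell cannot be told apart.

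Among the sensors, Ddx58 encodes RIG-I, the helicase that binds short double-stranded RNA with a 5′ triphosphate. It lies on chromosome 4 (chr4:40203773-40239828, minus strand). Ddx58 was at 23.7, 17.9 and 17.6 CPM in FF ethanol libraries A, B and C and at 29.1, 29.4 and 31.3 CPM in FF 4OHT. All 3 treated libraries lay above all 3 ethanol libraries, and also above every WT and Het library, whose highest value was 19.7 CPM. The FF mean went from 19.7 ± 3.41 to 29.9 ± 1.21 CPM (SD, n = 3), 1.52-fold (log2 0.60 ± 0.15 SE, edgeR adjusted p = 0.014). The call was lost without the 2 libraries that stand apart (log2 0.52, edgeR adjusted p = 0.0574), as it was without FF_EtOH B (0.0591), FF_EtOH C (0.0581) or FF_4OHT C (0.0687), with a log2 change of 0.52 to 0.58 in each.

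Zbp1, a sensor of left-handed nucleic acid duplexes that can start necroptosis, lies on chromosome 2 (chr2:173206612-173218923, minus strand). Its values were 3.22, 4.23 and 2.20 CPM in FF ethanol and 6.10, 8.28 and 11.9 CPM in FF 4OHT. The treated libraries were higher in each case but spread widely. The mean went from 3.22 ± 1.01 to 8.76 ± 2.93 CPM, 2.72-fold (log2 1.44 ± 0.42, edgeR adjusted p = 0.0313). It was still called without the 2 libraries that stand apart (log2 1.23, edgeR adjusted p = 0.0433). Leaving out single libraries ended the call for FF_EtOH A (edgeR adjusted p = 0.0831), FF_EtOH C (0.108), FF_4OHT B (0.0645) and FF_4OHT C (0.15).

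The other sensors did not pass the test. Mb21d1, encoding the DNA sensor cGAS (chr9:78430526-78443237, minus strand), was at 43.6, 44.9 and 52.8 CPM in FF ethanol and 47.6, 46.8 and 45.2 CPM in FF 4OHT. These libraries overlap fully, and the interval of the log2 change ran from -0.35 to 0.32 (95%, edgeR adjusted p = 0.96). Ifih1, encoding the long double-stranded RNA sensor MDA5 (chr2:62595798-62646255, minus strand), was at 27.1, 35.8 and 37.7 CPM in ethanol and 24.9, 30.5 and 30.9 CPM in 4OHT (log2 -0.22 ± 0.17, edgeR adjusted p = 0.431). The exons of a pseudogene, Gm8093, overlap those of Mb21d1 on the other strand.

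The adaptors and the kinase were mostly higher in treated FF libraries without passing the test. Tmem173, the endoplasmic reticulum adaptor STING (chr18:35733679-35740554, minus strand), was at 127.3, 120.3 and 73.8 CPM in FF ethanol and 136.4, 137.5 and 158.5 CPM in 4OHT. The lowest value belongs to FF_EtOH C, which is near the WT ethanol libraries at 83.0, 77.0 and 86.6 CPM. With all libraries the log2 change was 0.43 ± 0.18 (edgeR adjusted p = 0.133), and with FF_EtOH C and WT_4OHT C left out 0.22 ± 0.13 (edgeR adjusted p = 0.29). Mavs, the mitochondrial adaptor of RIG-I and MDA5 (chr2:131234063-131248025, plus strand), was at 27.4, 25.9 and 21.6 CPM in ethanol and 31.4, 31.5 and 36.0 CPM in 4OHT. Its libraries did not overlap, but the change did not pass the test (log2 0.40 ± 0.21, 95% interval -0.04 to 0.84, edgeR adjusted p = 0.228). Tbk1, the kinase both branches share (chr10:121546455-121586787, minus strand), was at 86.4, 89.3 and 90.9 CPM against 90.8, 99.4 and 107.1 CPM (log2 0.16 ± 0.12, edgeR adjusted p = 0.441).

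Irf3, the transcription factor that TBK1 activates (chr7:44997648-45002848, plus strand), was the one gene of the 10 whose treated FF libraries all lay below the ethanol libraries. It was at 61.4, 50.9 and 56.4 CPM in ethanol and 41.7, 48.0 and 50.1 CPM in 4OHT. The gap between the lowest ethanol library and the highest 4OHT library is small, and the change did not pass the test (log2 -0.27 ± 0.15, edgeR adjusted p = 0.25). Irf3 shares exonic positions with Bcl2l12 on the other strand, so part of its reads may be that gene's.

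Of the enzymes, Samhd1 had the smallest adjusted p of the 10 genes. SAMHD1 cleaves deoxynucleotides and limits the DNA that reverse transcription or replication stress can leave in the cytosol (chr2:157097533-157135265, minus strand). Its values were 71.9, 81.3 and 72.9 CPM in FF ethanol and 96.2, 113.6 and 121.4 CPM in FF 4OHT. The treated FF libraries lay above all 15 others, where the highest value was 89.8 CPM, in Het_4OHT B. The mean went from 75.4 ± 5.16 to 110.4 ± 12.9 CPM, 1.46-fold (log2 0.55 ± 0.13, edgeR adjusted p = 0.0096), and was called without the 2 libraries too (log2 0.53, edgeR adjusted p = 0.0341). Only without FF_4OHT C, among single libraries left out, was the call lost (log2 0.49, edgeR adjusted p = 0.0667). Trex1, the exonuclease that removes cytosolic DNA (chr9:109057933-109059734, minus strand), was at 17.5, 11.8 and 12.3 CPM in ethanol and 17.1, 19.0 and 23.7 CPM in 4OHT. FF_EtOH A overlaps the treated libraries, and the change did not pass (log2 0.52 ± 0.23, edgeR adjusted p = 0.151). Trex1 also shares exons with Atrip on the same strand.

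**Figure D2:**
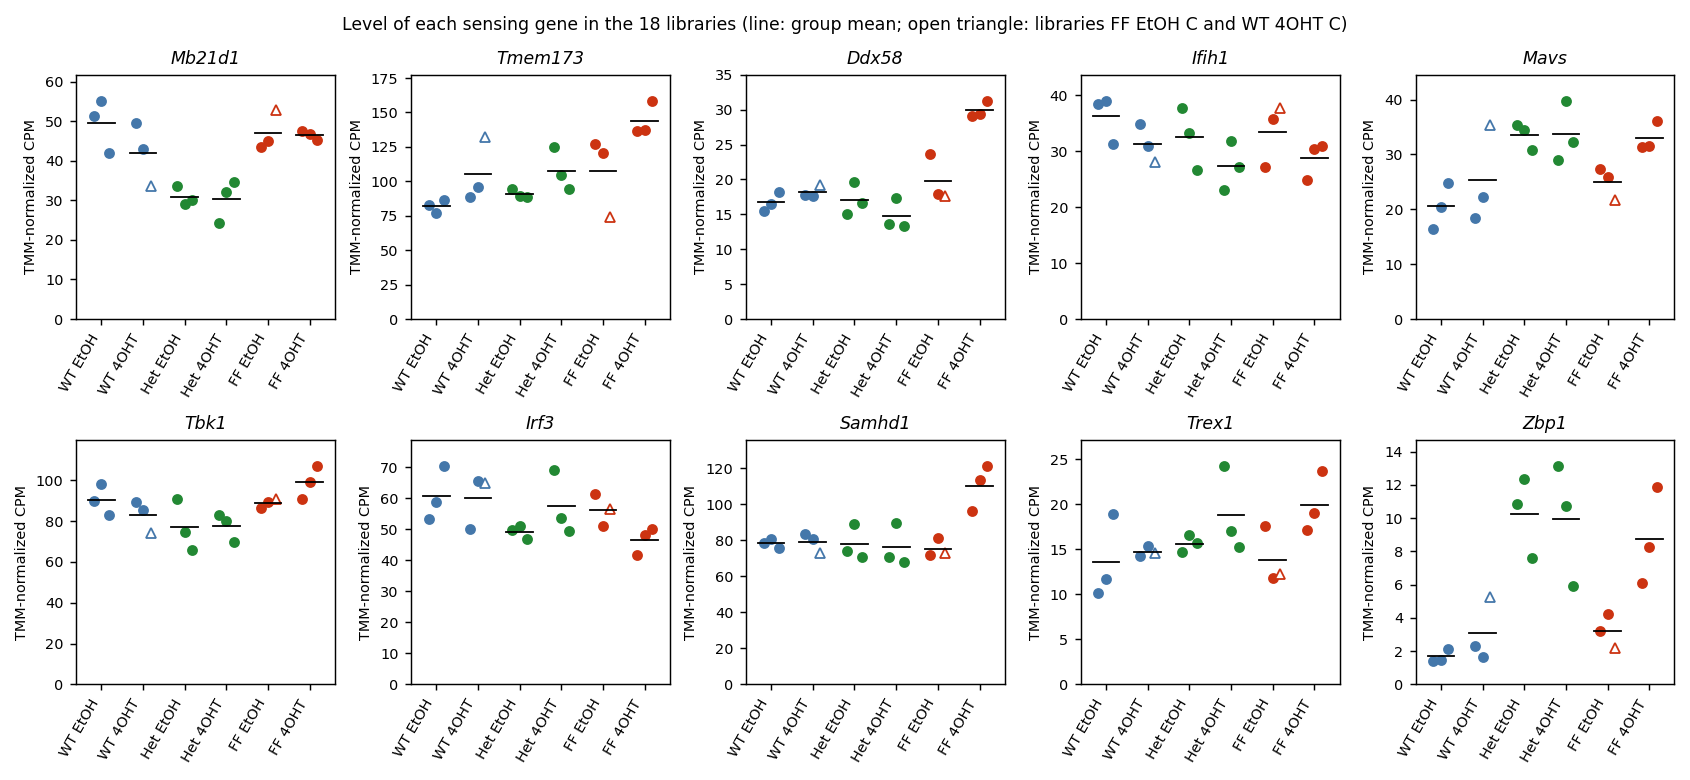
TMM-normalized CPM of the 10 sensing genes in each library (points), by group (3 libraries each), with group means as lines and FF_EtOH C and WT_4OHT C as open triangles. Treated FF libraries lie above all others for Ddx58 (29.1 to 31.3 CPM) and Samhd1 (96.2 to 121.4 CPM), while Zbp1 is high in both Het groups.

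Interferon-responsive promoters commonly carry a pair of GAAA repeats, so the 250 bases before the start were searched for the genes with a RefSeq promoter (GRCm38.p6). Of the 10 genes, 8 had an entry, Trex1 with 2 starts, and Tmem173 and Zbp1 had none. The full pair GAAANNGAAA, on either strand, is in 2.98% of all 32851 promoters and in none of these 8 genes. The shorter AANNGAAA, which the full pair contains, is in 21.3% of all promoters and in 16.1% of the 12223 promoters of tested genes, and among the 8 genes it was found for Ddx58 alone. The 100 bases before the start of Ddx58 (chr4:40239826-40239925, minus strand) and of Samhd1 (chr2:157135097-157135196, minus strand), the called genes with an entry, are shown 5′ to 3′. The capitals mark the match, whose first base lies at -59 from the start, and the Samhd1 window has none. The Samhd1 stretch lies inside the GENCODE gene (chr2:157097533-157135265), whose start is further upstream than the RefSeq start. Only part of the Samhd1 window therefore lies before the GENCODE start. A match is a description of letters and not a site, and the window leaves out more distant sequence.
Ddx58: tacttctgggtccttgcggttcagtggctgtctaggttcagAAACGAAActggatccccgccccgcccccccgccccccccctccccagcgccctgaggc
Samhd1: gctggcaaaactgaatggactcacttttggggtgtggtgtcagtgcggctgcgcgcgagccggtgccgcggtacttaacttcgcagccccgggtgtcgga

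In Het cells, which keep a normal allele, none of the 10 genes was called after 4OHT (edgeR, 0.0156% of all genes called). None had an unadjusted p under 0.05, which only 246 of all 12859 genes had. Hence these zeros do not show that the 10 genes were unchanged. DESeq2 and limma voom called 0 of the 10 as well, as did edgeR with the letters as a replicate block. The median log2 change was -0.01, and no gene had treated and ethanol libraries that did not overlap, against 4.95% of all genes. Ddx58 was at 15.0, 19.7 and 16.6 CPM in Het ethanol and 13.6, 17.3 and 13.4 CPM in 4OHT, a log2 change of -0.21 with an interval from -0.52 to 0.10. Samhd1 was at 74.3, 89.2 and 70.7 CPM against 70.5, 89.8 and 68.1 CPM, and its interval ran from -0.30 to 0.23. Zbp1 was at 10.9, 12.4 and 7.58 CPM against 13.1, 10.8 and 5.90 CPM, with an interval from -0.90 to 0.80.

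In the libraries labelled WT, where 4OHT and Cre act without a floxed allele, none of the 10 was called (edgeR, 0% of all genes called). None had an unadjusted p under 0.05, which only 275 of all 12859 genes had. DESeq2 and limma voom called 0 of the 10 as well. The median log2 change was 0.06. Tmem173 was the only gene whose libraries did not overlap, against 4.82% of all genes, at 83.0, 77.0 and 86.6 CPM in ethanol and 88.8, 96.1 and 132 CPM in 4OHT. The highest of these is WT_4OHT C, which is closer to FF_EtOH A and B (127.3 and 120.3 CPM) than to the other WT libraries. The log2 change went from 0.36 ± 0.18 to 0.17 ± 0.13 without the 2 libraries. Zbp1 likewise was at 5.26 CPM in WT_4OHT C against 2.28 and 1.66 CPM in A and B, and its log2 change went from 0.86 ± 0.42 to 0.21 ± 0.38 without the 2 libraries. Leaving out WT_EtOH C as well, whose Tgm2 level is like that of treated libraries, none of the 10 was called and 4 of 13015 genes were, with log2 changes of 0.43 ± 0.42 for Zbp1 and 0.22 ± 0.13 for Tmem173.

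**Figure D3:**
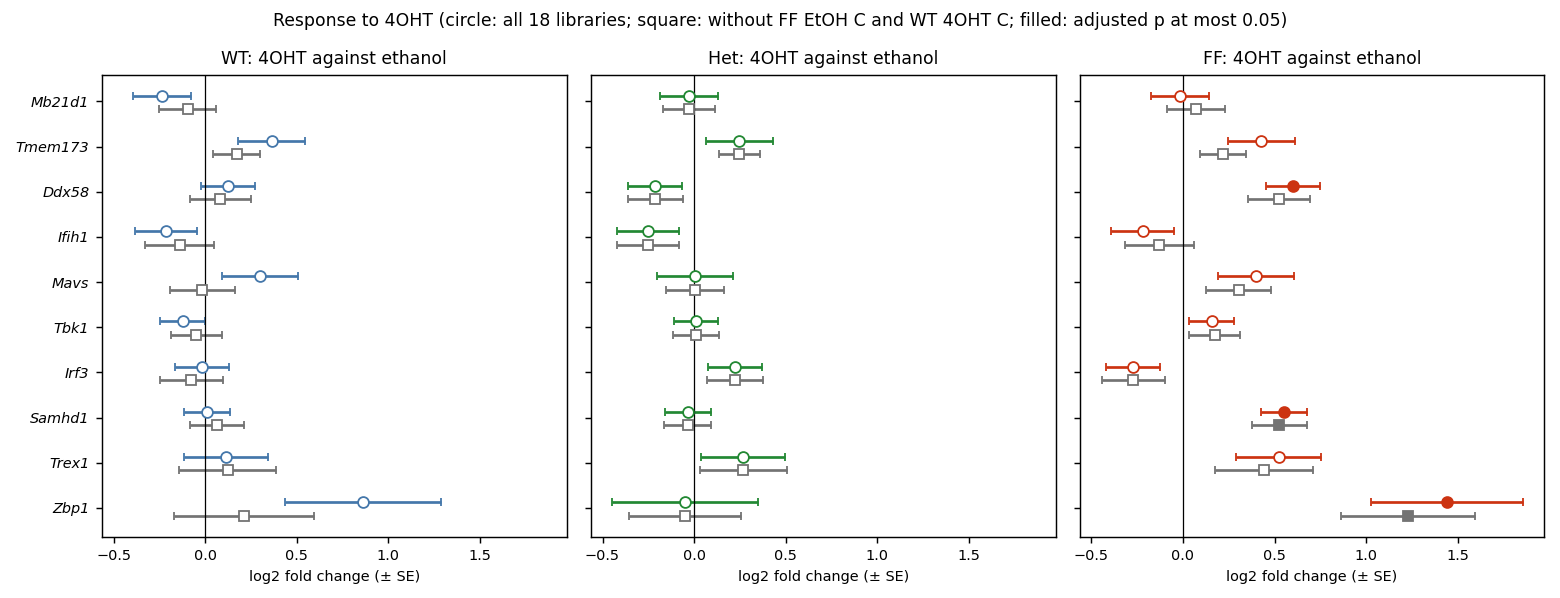
Log2 fold change of 4OHT against ethanol (± SE, n = 3 libraries a group) of the 10 sensing genes in WT, Het and FF cells, with all libraries (circles) and without FF_EtOH C and WT_4OHT C (squares), filled where the edgeR adjusted p is at most 0.05. Filled circles appear in FF alone, for Ddx58, Samhd1 and Zbp1, and Ddx58 is open without the 2 libraries.

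The difference between the FF response and each of the others was tested directly, and none of the 10 genes passed. Between FF and Het 2.5% of all genes were called. Of the 10, 4 had an unadjusted p under 0.05, against 2092 of all 12859 genes. Limma voom called 0 of the 10 (1.98% of all genes) and DESeq2 called 2 (5.53% of all genes). Ddx58 was nearest, with a log2 difference of 0.81 ± 0.21 (95% interval 0.37 to 1.25, edgeR adjusted p = 0.0508). Samhd1 differed by 0.59 ± 0.18 (0.21 to 0.96, edgeR adjusted p = 0.1) and Zbp1 by 1.49 ± 0.57 (0.27 to 2.71, edgeR adjusted p = 0.198). Irf3 went the other way, by -0.50 ± 0.21 (edgeR adjusted p = 0.248). The letters pair the Het libraries but not clearly the FF libraries. With them as a replicate block 5.87% of all genes were called. Ddx58 (0.83, edgeR adjusted p = 0.0235) and Samhd1 (0.59, edgeR adjusted p = 0.0266) were among these. Both were called in DESeq2 too, with adjusted p of 0.0063 and 0.0343. Without the 2 libraries none of the 10 was called in edgeR (2.45% of all genes).

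Between FF and WT, 2.3% of all genes were called and none of the 10. Of the 10, 2 had an unadjusted p under 0.05, against 1964 of all 12859 genes. DESeq2 and limma voom called 0 of the 10 (5.27% and 1.87% of all genes). The Samhd1 difference was 0.54 ± 0.18 (edgeR adjusted p = 0.142). Samhd1 was called with a replicate block (edgeR adjusted p = 0.037), a fit that called 4.9% of all genes. The Ddx58 difference was 0.48 ± 0.21 (edgeR adjusted p = 0.279). For Zbp1 the difference was 0.58 ± 0.59, with an interval from -0.67 to 1.83. Mb21d1, Tmem173, Ifih1, Mavs, Tbk1 and Trex1 had intervals that include 0 in both differences. Without the 2 libraries none of the 10 was called either (0.905% of all genes). None of the 10 passed the test of the Het against the WT response (edgeR, 0% of all genes called, 0 in DESeq2 and limma voom). At an unadjusted p under 0.05 were 0 of the 10 and 233 of all 12859 genes.

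**Figure D4:**
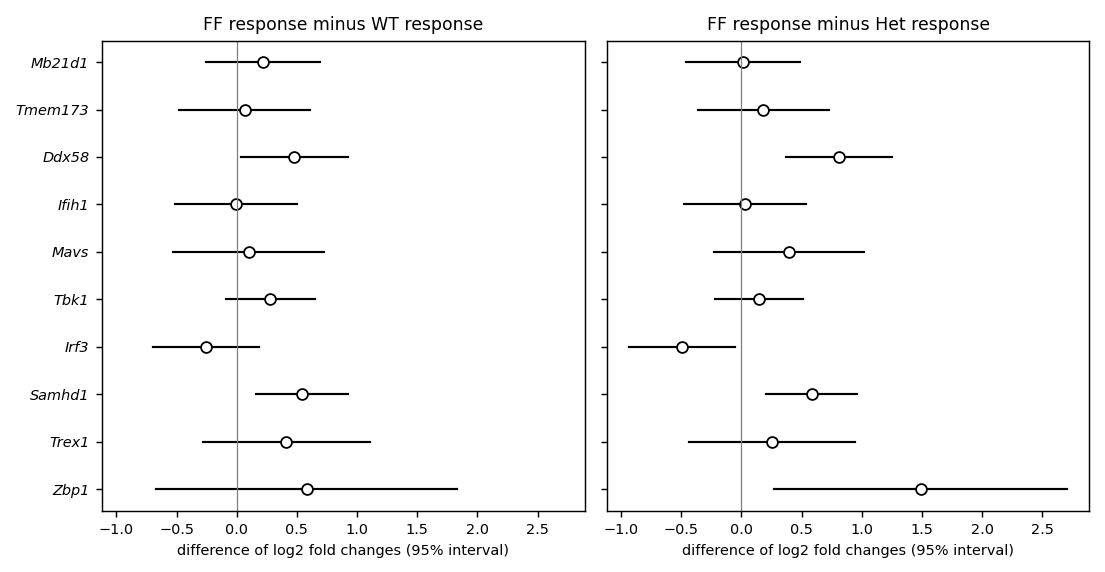
Difference between the FF response to 4OHT and the WT response (left) or Het response (right) for the 10 sensing genes, as log2 values with 95% intervals from the edgeR fit. The intervals of Ddx58 and Samhd1 lie to the right of 0 in both panels (0.48 and 0.54 against WT, 0.81 and 0.59 against Het). In the Het panel that of Zbp1 does too, and that of Irf3 lies to the left. The differences are above 0 for 8 of the 10 genes against WT and 9 against Het. None of the 10 passes the adjusted threshold.

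Without 4OHT, single genes of the 10 differed between the lines, at shares near those of all genes. Between Het and WT ethanol libraries 3 of the 10 were called, Mb21d1 lower and Mavs and Zbp1 higher, against 23.7% of all genes (13.3% higher and 10.4% lower), and 5 of the 10 did not overlap against 45.3% of all genes. Zbp1 had the widest gap: 10.9, 12.4 and 7.58 CPM in Het against 1.43, 1.48 and 2.13 CPM in WT. That is a 6.09-fold higher level in Het, and each Het library lay above every WT one (log2 2.61 ± 0.43, edgeR adjusted p = 0.000426). Mb21d1 was at 33.7, 29.1 and 30.0 CPM in Het against 51.3, 55.2 and 41.9 CPM in WT (log2 -0.68 ± 0.16, edgeR adjusted p = 0.00537). The Het level stayed low under 4OHT, at 24.3 to 34.6 CPM. Mavs was at 35.4, 34.5 and 30.8 CPM in Het against 16.5, 20.4 and 24.9 CPM in WT, 1.63-fold higher (log2 0.71 ± 0.21, edgeR adjusted p = 0.0215), but the call was lost without WT_EtOH A (edgeR adjusted p = 0.105), WT_EtOH B (0.0651) or Het_EtOH A (0.0633). The fit without FF_EtOH C and WT_4OHT C called all 3 as well, beside 25.8% of all genes, but neither library is in this comparison. With WT_EtOH C left out too, which is in it, all 3 were called, beside 23.2% of all genes. The log2 differences were then -0.73 for Mb21d1, 0.92 for Mavs and 2.87 for Zbp1 (edgeR adjusted p = 0.00282, 0.00132 and 0.000175).

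The Het ethanol libraries also differed in differentiation markers. Dendritic markers, 8 of 8 in the table, summed to between 35.8 and 76.1 CPM in Het ethanol against 0.931 to 1.75 CPM in WT ethanol. Most of the Het sum came from H2-Ab1 (46.1 ± 20.8 CPM) and Itgax (3.96 ± 1.75 CPM), both called higher, while Xcr1 was called lower. In Het ethanol 6 of the 8 were under 1 CPM, with Siglech, Cd209a and Xcr1 at 0, and in WT ethanol Siglech, Cd209a, Zbtb46 and Ccr7 were at 0. Neutrophil markers summed to between 163 and 324 CPM in Het ethanol against 1138 to 1342 CPM in WT ethanol, with 6 of 8 called lower. In the other marker lists Flt3 and Pdgfrb were called higher, and Kit, Hoxa9, Fcgr1, Nkg7 and Lepr lower. These calls are to be read against 13.3% of all genes called higher and 10.4% lower. The part of these markers in the differences of Zbp1, Mb21d1 and Mavs was not tested.

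The cGAS level of FF ethanol libraries (43.6 to 52.8 CPM) overlapped that of WT and lay above that of Het. Against Het, 16.8% of all genes were called (7.74% higher and 9.04% lower), and of the 10 Mb21d1 was called higher (log2 0.61 ± 0.16, edgeR adjusted p = 0.0154) and Zbp1 lower (-1.67 ± 0.42, edgeR adjusted p = 0.0112). Libraries did not overlap for 3 of the 10 (37.8% of all genes), the third being Mavs, at 27.4, 25.9 and 21.6 CPM in FF against 35.4, 34.5 and 30.8 CPM in Het. These comparisons share their FF and Het ethanol libraries with those above. Without FF_EtOH C alone neither passed (edgeR adjusted p = 0.0658 and 0.0509), while Mb21d1 also missed the threshold without Het_EtOH B (0.0898) or Het_EtOH C (0.0546) and with scaling by library totals (0.0543). Without both FF_EtOH C and WT_4OHT C, both were called (edgeR adjusted p = 0.0372 and 0.0145, 15.7% of all genes called).

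Against WT ethanol none of the 10 genes was called in FF ethanol libraries (edgeR, 0% of all genes called, 0 in DESeq2 and limma voom). At an unadjusted p under 0.05 were 1 of the 10 and 707 of all 12859 genes. Zbp1 was the 1 gene of the 10 without overlap (9.07% of all genes). Without FF_EtOH C alone none of the 10 was called either (Tmem173 log2 0.59 ± 0.16, edgeR adjusted p = 0.088), and 1 of 13058 genes was. Without both that library and WT_4OHT C, STING was the 1 gene of the 10 called, higher in FF, where 4.71% of all genes were called: Tmem173 was at 127.3 and 120.3 CPM in FF_EtOH A and B against 83.0, 77.0 and 86.6 CPM in WT ethanol (log2 0.59 ± 0.13, edgeR adjusted p = 0.0113; 0.38 ± 0.18, edgeR adjusted p = 0.906 with all libraries). Tmem173 was then also called higher than in Het ethanol (log2 0.45 ± 0.13, edgeR adjusted p = 0.0253). Leaving out WT_EtOH C too gave 0.66 against WT (edgeR adjusted p = 0.0108).

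The rest of the pathway was read through 8 lists of other genes, by role, that hold 116 genes of which 110 were tested. In FF cells 18 of the 110 (16.4%) were called higher and 10 (9.09%) lower, against 5.16% and 8.29% of all genes. Without the 2 libraries these were 11 (10%) and 7 (6.36%), against 4.43% and 7.52% of all genes. The median log2 change over the 110 was 0.05, against -0.02 over all genes. In Het and in WT cells none of the 110 was called by edgeR. At an unadjusted p under 0.05 were 2 and 0, against 246 and 275 of all 12859 genes. DESeq2 called 1 and 0 of the 110, and limma voom called 0 in both.

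Other nucleic acid sensors were called higher in 5 of 22 and lower in 2, against 5.16% and 8.29% of all genes. Tlr13, an endosomal receptor for bacterial ribosomal RNA, was at 11.9, 14.9 and 14.6 CPM in FF ethanol and 55.3, 70.0 and 76.5 CPM in 4OHT (log2 2.29 ± 0.41, edgeR adjusted p = 0.0021). Tlr7, an endosomal receptor for single-stranded RNA, went from 1.68 ± 0.360 to 7.33 ± 1.99 CPM (log2 2.12 ± 0.47, edgeR adjusted p = 0.00743), and Oas2, which makes 2-5A from double-stranded RNA, from 8.40 ± 0.294 to 19.4 ± 3.89 CPM (log2 1.21 ± 0.29, edgeR adjusted p = 0.0117). These libraries did not overlap between treatments. Oas2 did not pass without FF_4OHT C (edgeR adjusted p = 0.071). Xrcc6, encoding the DNA end-binding protein Ku70, fell from 76.5 ± 6.75 to 54.8 ± 2.93 CPM (log2 -0.48 ± 0.09, edgeR adjusted p = 0.00284).

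Among 16 genes that regulate cGAS and STING, 3 were called lower and none higher, against 8.29% and 5.16% of all genes. The median log2 change of the 16 was -0.09. Rnf5, a ubiquitin ligase that limits STING, was at 48.0, 42.4 and 42.7 CPM in FF ethanol and 25.6, 22.03 and 21.7 CPM in 4OHT (log2 -0.94 ± 0.12, edgeR adjusted p = 0.000271). Slc19a1, a folate carrier that also imports cyclic dinucleotides, fell from 65.7 ± 4.32 to 39.6 ± 2.98 CPM (log2 -0.73 ± 0.10, edgeR adjusted p = 0.000369). Rnf26, a ubiquitin ligase of STING, fell from 90.8 ± 4.59 to 60.8 ± 3.60 CPM (log2 -0.58 ± 0.10, edgeR adjusted p = 0.00199). All 3 were called in FF under each fit that left out libraries. In ethanol, Rnf5 and Rnf26 were already called lower in Het than in WT libraries, and Rnf26 higher in FF than in Het. In the tests of the difference between responses, 1.89% and 2.09% of all genes were called lower against WT and Het. All 3 regulators were called lower against both. Against Het this held without the 2 libraries (edgeR adjusted p = 0.0219, 0.0188 and 0.0369), but against WT it did not (0.0593, 0.0541 and 0.103). Rnf26 was lost against Het without FF_4OHT A (0.0503), FF_4OHT C (0.103), Het_EtOH A (0.09) or Het_EtOH B (0.0802). Rnf26 and Rnf5 share exonic positions with genes on the other strand, and Rnf26 also with the protein-coding gene Gm49380 on its own strand.

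Of 16 genes that regulate RIG-I and MAVS, 3 were lower and none higher (median -0.17), against 8.29% and 5.16% of all genes. These were the phosphatase subunit Ppp1cc (log2 -0.39 ± 0.10, edgeR adjusted p = 0.0194), the stress granule protein G3bp1 (-0.31 ± 0.09, edgeR adjusted p = 0.0295) and the mitochondrial protein Nlrx1 (-0.40 ± 0.12, edgeR adjusted p = 0.0346). Without the 2 libraries only G3bp1 of these 3 was called, with Ppp1cc at an edgeR adjusted p of 0.0587 and Nlrx1 at 0.131. In that fit 7.52% of all genes were called lower. Each of the 3 missed the threshold when single FF libraries were left out, with FF_4OHT C giving edgeR adjusted p of 0.112, 0.141 and 0.132 in that order. Among 18 kinase complex and adaptor genes, Casp8 was higher, from 110.8 ± 16.6 to 169.3 ± 12.4 CPM (log2 0.61 ± 0.11, edgeR adjusted p = 0.00274), and its adaptor partner Fadd lower (-0.42 ± 0.11, edgeR adjusted p = 0.0215; 0.0696 without the 2 libraries). Nuclease and editing genes gave 1 of 11 higher and 1 lower, the latter the RNA exosome helicase Skiv2l (-0.48 ± 0.10, edgeR adjusted p = 0.00425).

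In the 3 lists downstream of the sensors, 2 of 8 other transcription factors, 4 of 10 interferon arm genes and 5 of 9 interferon target genes were called higher. None of these genes was called lower. Of all genes 5.16% were called higher and 8.29% lower. Irf7, the interferon-inducible relative of Irf3, was at 3.38, 2.45 and 2.47 CPM in FF ethanol and 4.84, 5.13 and 8.28 CPM in 4OHT (log2 1.14 ± 0.32, edgeR adjusted p = 0.0272; 0.0746 without the 2 libraries). Irf5, another factor of this family, went from 15.2 ± 3.50 to 30.3 ± 5.75 CPM (0.99 ± 0.28, edgeR adjusted p = 0.031). Irf9, the DNA-binding part of the factor that type I interferon receptors activate, was at 13.4, 13.3 and 16.4 CPM in ethanol and 24.4, 30.3 and 37.1 CPM in 4OHT (1.09 ± 0.22, edgeR adjusted p = 0.00394). The receptor chain Ifnar1 (0.50 ± 0.11, edgeR adjusted p = 0.00862) and the feedback inhibitors Socs3 (1.38 ± 0.33, 0.0116) and Usp18 (2.03 ± 0.53, 0.0184) were higher too. Of these, Usp18 was lost without the 2 libraries (edgeR adjusted p = 0.0593), and Socs3 when WT_EtOH C was left out too (0.0554).

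Ifnb1 and Ifna4, the type I interferon genes on the lists, had no counts in any of the 18 libraries, which allows up to 0.0371 CPM over the FF 4OHT group (3 counts of 80771227, counting error only). Interferon targets called in FF were low in level: Isg15, a ubiquitin-like modifier, was at 0.612, 0.711 and 0.911 CPM in ethanol and 1.55, 1.66 and 1.91 CPM in 4OHT (log2 1.19 ± 0.36, edgeR adjusted p = 0.0406). Mx1, an antiviral GTPase, went from 0.453 ± 0.0742 to 1.48 ± 0.0576 CPM (1.69 ± 0.52, edgeR adjusted p = 0.0396). The chemokine Cxcl10 went from 0.635 ± 0.163 to 2.48 ± 1.70 CPM (1.96 ± 0.52, edgeR adjusted p = 0.0215). Irgm1, a GTPase of pathogen vacuoles and autophagy, had higher counts, from 21.9 ± 5.86 to 39.1 ± 5.60 CPM (0.83 ± 0.16, edgeR adjusted p = 0.00392). Isg15 and Cxcl10 missed the threshold without the 2 libraries (edgeR adjusted p = 0.0523 and 0.0665). Leaving out any single FF library ended the call of Isg15 and of Mx1, with edgeR adjusted p of up to 0.129 and 0.119. Leaving out FF_4OHT C ended that of Irf7 (0.157), Irf5 (0.135), Ifnar1 (0.0687), Usp18 (0.0807) and Fadd (0.0821), and FF_4OHT A that of Cxcl10 (0.135). With edgeR adjusted p from 0.0583 to 0.114, Irf7 also missed the threshold without FF_EtOH B or C, Irf5 without FF_EtOH A or B or FF_4OHT B, Usp18 without FF_EtOH C or FF_4OHT B, Cxcl10 without FF_EtOH B or C, and Fadd without FF_EtOH C or FF_4OHT A. Of the 24 genes that the naming rule takes from the lists, 12 share exonic positions with another annotated gene, among them Irf9 with Rnf31 on its own strand.

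**Figure D5:**
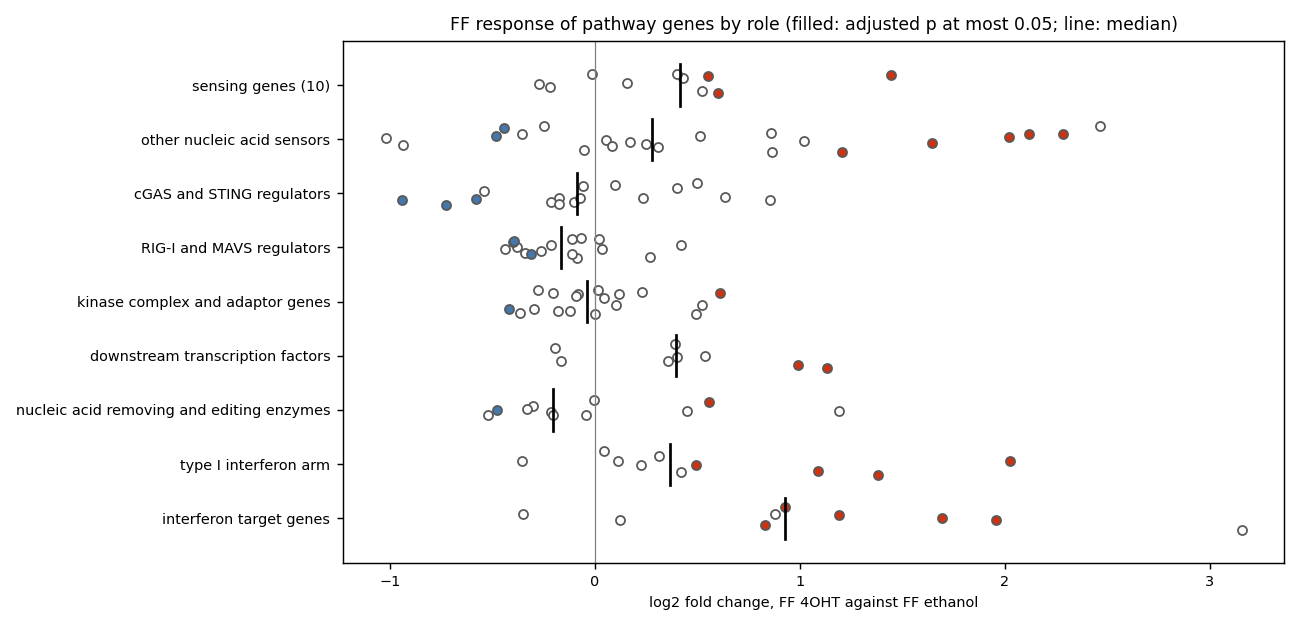
Log2 fold change of FF 4OHT against FF ethanol for the 10 sensing genes and the tested genes of the 8 other lists (points, filled where the edgeR adjusted p is at most 0.05), with the list median as a bar. The medians are highest for interferon target genes (0.93) and lowest for nucleic acid removing and editing enzymes (-0.21).

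The summed level of monocyte and macrophage markers was also higher after 4OHT in FF cells. The 11 monocyte and macrophage markers in the table summed to between 2833 and 3442 CPM in FF ethanol and between 4060 and 5066 CPM in FF 4OHT. Of the 11, 5 were called higher and none lower, against 5.16% and 8.29% of all genes. The log2 change was below 0 for 3 of the 11, down to -0.92. None was at 0 counts, and 1 was under 1 CPM in each FF group. In WT cells the same sums were 2845 to 2970 CPM in ethanol and 2969 to 3117 CPM in 4OHT, and in Het cells 2629 to 3518 CPM and 2173 to 3695 CPM. The sums in FF did not overlap, while those in Het did. Neutrophil markers overlapped in FF, with sums of 636 to 1492 CPM in ethanol and 1022 to 1745 CPM in 4OHT, 1 of 8 called higher and none lower. The part of these markers in the changes of Ddx58, Samhd1, Zbp1 and the lists was not tested.

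The genes whose levels most resembled each member over the 18 libraries were found by Pearson correlation of log2 CPM, as a description, since the libraries share lines and treatments. Zbp1 resembled Rnase4 (r = 0.97, n = 18) and Ctsl (0.96), which encode a secreted ribonuclease and a lysosomal protease. Mb21d1 resembled Smad2 (r = 0.97) and Gca (0.97). Tmem173 resembled Tmem82 (r = 0.96) and Itm2c (0.96), and Samhd1 resembled Bst1 (0.95) and Cybb (0.94), the last encoding the phagocyte oxidase subunit gp91phox. The closest gene to Ddx58 was Notch1 (r = 0.95), then Lman2l (0.93). For Mavs the closest were Gas7 (r = 0.94) and Tbc1d30 (0.94), for Irf3 Aspscr1 (0.93) and Miip (0.91), and for Trex1 Ypel3 (0.90) and Mdga1 (0.90). Tbk1 resembled Cpsf7 (r = 0.86), and Ifih1 resembled Dcun1d4 (0.87) and Wdr76 (0.86). Among the members themselves the highest correlations were between Mavs and Zbp1 (r = 0.88, both high in the Het line) and between Ddx58 and Samhd1 (r = 0.80, both high in FF 4OHT).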

How the data were processed

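Gene-level read counts for 18 libraries were deposited by the authors as whole numbers, not normalized, in 1 table by gene symbol. The submitters' processing notes list HISAT2 2.0.5 for mm10, featureCounts 1.5.2 from Subread, CASAVA 1.4 and FastQC 0.11.7. The settings for strand, annotation and multiply matching reads were not given in the sources used here, and reads of overlapping genes may be mixed.

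All 18 libraries were fitted together in edgeR 4.0.16 (R 4.3.3), with a mean for each group, TMM factors, genes kept by filterByExpr at its minimum count of 10, and a robust quasi-likelihood F test. Benjamini-Hochberg adjustment ran over all 12859 tested genes, and a gene was called at an adjusted p of at most 0.05. Standard errors come from the F statistic, and intervals are 95%. Likeness was computed on log2 CPM (prior count 2). Scripts were tested on simulated data. Levels per length used GENCODE M21 exons (GRCm38), in which all 10 members matched. Coordinates come from that annotation and promoters from RefSeq.

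Members and lists were chosen with earlier results of these data known. The text names the 10 members, Ddx41, up to 4 called genes per list with the smallest adjusted p in FF, and the 2 genes most correlated with each member. A few genes that this rule takes are not reported here, though counts include them. Same-letter libraries deviated together in Het (correlations 0.48, 0.70 and 0.40), so that the letters pair the Het libraries, but less so in WT (0.39, -0.02 and 0.25) and FF (0.17, 0.18 and 0.07). Alternatives were other scalings (DESeq2's RLE factors, library totals), filters (none, 5 CPM in 3 libraries), DESeq2 1.42.0, limma voom (limma 3.58.1), a replicate block, the compared groups fitted by themselves, and fits without single or several libraries. Lists were not given a set test.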

Additional observations from a re-analysis of the deposited data

Results flagged for a closer look

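The response of FF cells to 4OHT differed from that of another line, by the test of the difference itself, for Ddx41 and for 5 genes named from the lists. Ddx41 differed by -2.49 (log2) from WT and by -1.84 from Het, and both held without FF_EtOH C and WT_4OHT C (edgeR adjusted p = 0.000248 and 0.00269). Against the WT response the difference was -0.84 for Rnf5, -0.79 for Slc19a1, -0.63 for Rnf26 and -0.57 for Skiv2l, and none of these passed without the 2 libraries (edgeR adjusted p = 0.0593, 0.0541, 0.103 and 0.158). Against the Het response it was -0.95 for Rnf5, -0.82 for Slc19a1, -0.68 for Rnf26 and -0.54 for Xrcc6, and of these Xrcc6 missed the threshold when the 2 libraries were left out (edgeR adjusted p = 0.0826). Skiv2l and Xrcc6 also missed the threshold when most single libraries were left out, with edgeR adjusted p of up to 0.113 and 0.149 without FF_4OHT C. Rnf5 against WT missed it without WT_EtOH A (0.0508), WT_EtOH B (0.0657), WT_4OHT B (0.0578), FF_4OHT B (0.0522) or FF_4OHT C (0.0638). Rnf26 against WT missed it without most single libraries, at up to 0.116. Fitted to the compared groups alone, Rnf5 and Rnf26 missed it against Het (0.0508 and 0.0771). The Ddx41 difference is that of the deleted gene.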

How the results depend on the processing

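Across the alternatives, no direction of a called value reversed. In FF cells 3 of the 10 sensing genes were called under each alternative scaling, filter, tool and with the replicate block; leaving out single libraries gave 0 to 3 (1 without FF_EtOH C, 0 without FF_4OHT C), and both fits without the libraries that stand apart gave 2. For the FF response against the Het response none was called in the reported fit (2.5% of all genes). With at least 5 CPM in 3 libraries 1 was called (3.03%), with DESeq2 2 (5.53%) and with a replicate block 2 (5.87%). Leaving out single libraries gave 0 to 2. Against the WT response 1 was called with a replicate block (4.9% of all genes, against 2.3% in the reported fit). For FF against WT in ethanol, 1 was called without the 2 libraries and 1 without those and WT_EtOH C. For FF against Het in ethanol, with 2 reported, 1 was called with library totals and 0 to 2 without single libraries. The replicate block changed no other count of called members. The cause of these moves was not tested. Of all gene-level values under the alternatives, 2011 had the same status as in the reported fit, 13 gained a call and 90 lost one. Values called in neither fit, such as those of Mb21d1 in Het cells, are among the 2011. The 90 are therefore to be read against the values called at the start, a number not given here. With library totals the median of all genes moved to 0.101 for Het against WT in ethanol and to -0.105 for FF against Het. The number of all genes called in FF was 1729, and it was 700 without FF_4OHT C, 961 without FF_4OHT B, 2661 without Het_4OHT A and 2763 with the replicate block. With 3 libraries a group the intervals are wide, and a gene that missed the threshold is not shown to be unchanged.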

Other observations

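Genes of the other lists were called between uninduced lines at shares mostly near or below those of all genes. Between Het and WT ethanol libraries 8 of 110 genes (7.27%) were called higher and 11 (10%) lower, against 13.3% and 10.4% of all genes, and between FF and Het ethanol libraries 9 (8.18%) were higher and 5 (4.55%) lower, against 7.74% and 9.04%. Genes of the antiviral response, chosen here after their values were seen, went both ways between Het and WT. Oas2 (log2 -1.60 ± 0.30, edgeR adjusted p = 0.000974) and Oas1a (-0.67 ± 0.18, 0.0108) were lower in Het. Oasl2 (2.19 ± 0.47, edgeR adjusted p = 0.00262), Rsad2 (2.02 ± 0.29, 0.000118), Ifit1 (1.89 ± 0.59, 0.0282) and Ccl5 were higher, as Zbp1 was.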
